A study of Mus musculus with 16 samples.

Results

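The SOX proteins bind DNA through an HMG box, and the 10 genes described here are those of the SoxB, SoxC, SoxD and SoxE subfamilies that mark neural and neural crest lineages, without *Sox2*. They are *Sox1* and *Sox3* (SoxB1), *Sox21* (SoxB2), *Sox4* and *Sox11* (SoxC), *Sox5* and *Sox6* (SoxD), and *Sox8*, *Sox9* and *Sox10* (SoxE). They were taken by name, with the RefSeq transcript entry of the highest mean kept for each gene, and all 10 were found among 19338 genes. Nuclear RNA depleted of rRNA was sequenced from mouse embryonic stem cells (ESCs), with 4 libraries in each of 4 groups. The line Ring1a-/-;Ring1bfl/fl lacks Ring1a (*Ring1*) and carries a conditional allele of Ring1b (*Rnf2*). Either RING1A or RING1B is the catalytic subunit of Polycomb repressive complex 1 (PRC1). The line was profiled untreated and after 800 nM 4-hydroxytamoxifen for 72 h, which removes RING1B. The line Eed-/-;Ring1a-/-;Ring1bfl/fl was made from it by CRISPR/Cas9 deletion of *Eed*, a core gene of PRC2, and was profiled with and without the same treatment. It is a single clone, B4, at passage 30 to 40 against 25 to 35 for the parental line. All 4 groups lack Ring1a, so no group is free of Polycomb mutations.

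The values described here are the mean normalized counts of each gene, which the authors averaged over libraries of all groups, so that each gene has 1 value with no error. The 3 tables of the series gave the same mean for every entry. Values per library or per group, and the outcomes of the comparisons that the authors ran, were not used here. How each gene differed between the groups was therefore not analysed, and no difference between genes below was tested. In bulk samples fewer cells with a transcript and less of it per cell cannot be told apart. The median gene had a mean normalized count of 191.6, and 57.6% of genes reached 100. *Eed*, *Rnf2* and *Ring1*, the genes targeted in these lines, had pooled means of 2723, 3208 and 19.0, which cannot check the labels of single groups. Of 12 markers of pluripotent ESCs 11 were found. All 11 had pooled means of at least 100, beside 57.6% of all genes, and the lowest of them had 568.

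SOX proteins of different subfamilies follow each other as neural cells mature. SoxB1 proteins keep neural progenitors in an undifferentiated state and the SoxB2 protein SOX21 opposes them, while SoxC proteins act in cells that leave the cell cycle to become neurons. SoxD proteins lack a transactivation domain of their own and work with other factors, among them SOX9 in cartilage. SoxE proteins specify the neural crest and its derivatives, and later direct glia and pigment cells. Many of these genes have CpG island promoters that Polycomb complexes occupy in ESCs.

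The 10 Sox genes covered a 62.0-fold range of mean normalized counts, and the SoxD and SoxC genes made up most of their summed level. All 10 had means of at least 10, as did 15626 of all 20633 entries, and 5 reached 100, beside 57.6% of all genes. *Sox6* was highest at 1238, which placed it at the percentile 80.7 of all genes. *Sox11* followed at 1111 (percentile 79.0), *Sox5* at 435.0 (percentile 62.8) and *Sox4* at 248.0 (percentile 53.8). These 4 were the members above the median gene. *Sox21* stood at 165.7 (percentile 48.2) and *Sox1* at 97.9 (percentile 42.1). *Sox9* had 68.5 (percentile 38.7), and *Sox3*, *Sox8* and *Sox10* were lowest at 20.96, 20.1 and 20.0. The lowest 3 lay close together, with *Sox3* 1.04 times *Sox8* and *Sox8* 1.01 times *Sox10*, at the percentiles 29.9, 29.5 and 29.5. Of the summed level of the 10 genes, 48.9% came from SoxD, 39.7% from SoxC, 4.84% from SoxB2, 3.47% from SoxB1 and 3.17% from SoxE. These shares are of counts not divided by length, and *Sox6* and *Sox5* have the longest genomic spans of the 10. Per kb of genomic span, introns included, *Sox6* and *Sox5* had 2.18 and 1.16, against 133.6 for *Sox11*.

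**Figure D1:**
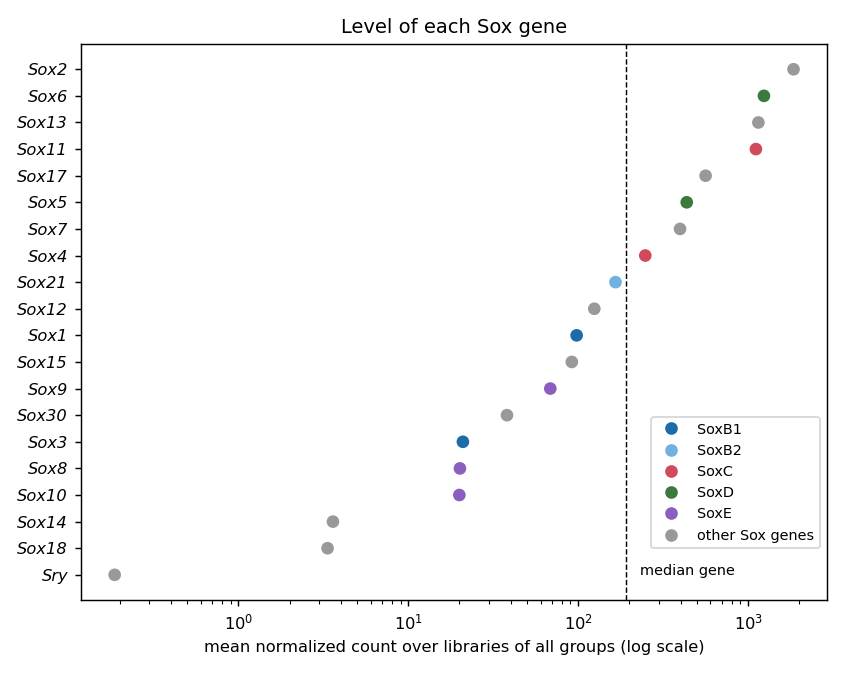
Mean normalized count over libraries of all groups (log scale) for each Sox gene, 1 point a gene, with the 10 members coloured by subfamily and the other Sox genes in grey; the dashed line is the median gene at 191.6. *Sox6*, *Sox11*, *Sox5* and *Sox4* lie to its right, and *Sox3*, *Sox8* and *Sox10* lie together near 20.

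The SoxC genes differed from each other, and both are genes of a single exon. *Sox11* (NM_009234), which promotes neuronal maturation, lies on chromosome 12 from 27334264 to 27342574 on the minus strand of mm10. *Sox4* (NM_009238), which acts with it in neurons and also in heart and lymphoid cells, lies on chromosome 13 from 28948919 to 28953713. The mean of *Sox11* was 4.48 times that of *Sox4*, and 2.58 times per kb of transcript, since the *Sox11* transcript has 8311 nt and that of *Sox4* 4795 nt. No other annotated gene overlapped *Sox11*. A lincRNA on the opposite strand, Gm26735, covered 57.4% of *Sox4*. The library kit marks the strand, but the strand setting of the counting is not given in the sources used here, so the value of *Sox4* is uncertain.

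The SoxB genes are also genes of a single exon. *Sox1* (NM_009233), one of the earliest genes of the neural plate, lies on chromosome 8 from 12395295 to 12400126 on the plus strand. Its mean of 97.9 was 4.67 times that of *Sox3* (NM_009237, chromosome X from 60891366 to 60893430), which acts in neural progenitors and in the pituitary. Per kb of transcript the ratio was 2.00, from 20.3 for *Sox1* and 10.2 for *Sox3*. *Sox1* lies whole within the noncoding gene Sox1ot on the same strand, whose own entry had a mean of 110.6. Reads on the shared stretch cannot be told apart by strand, and the level of *Sox1* is uncertain for that reason. *Sox21* (NM_177753, chromosome 14 from 118233232 to 118237030) had 43.6 per kb of transcript, which was 2.15 times *Sox1*. A lincRNA on the other strand, Gm4675, covered 21.03% of it. No annotated gene overlapped *Sox3*.

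The SoxE genes were the lowest subfamily by sum. *Sox9* (NM_011448), a gene of the crest, cartilage and testis, lies on chromosome 11 from 112782224 to 112787760 and has 3 exons. It had 68.5 mean normalized counts, 3.43 times *Sox10* and 3.40 times *Sox8*. Per kb of transcript these ratios were 2.25 and 2.47, with levels of 16.6 for *Sox9*, 7.36 for *Sox10* and 6.71 for *Sox8*. Per kb of genomic span, introns included, they were 5.93 and 2.95. *Sox10* (NM_011437, chromosome 15 from 79154913 to 79164490), which directs Schwann cells, melanocytes and oligodendrocytes, has 4 exons. *Sox8* (NM_011447, chromosome 17 from 25565892 to 25570686) has 3 exons and acts beside its paralogs in the crest and in glia. The order of *Sox8* and *Sox10* turned with the measure, since *Sox8* was above *Sox10* in mean normalized count but below it per kb of transcript. Per kb of span *Sox8* was again above, at 4.20 against 2.09. The antisense gene 2810468N07Rik overlapped *Sox8* over 329 nt, or 6.86% of it, while no annotated gene overlapped *Sox9* or *Sox10*.

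The SoxD genes stood apart in structure. *Sox6* (NM_001025559), a gene of cartilage, erythroid cells and interneurons, spans 567.4 kb on chromosome 7 from 115471344 to 116038744, with 16 exons and a spliced transcript of 8079 nt. *Sox5* (NM_001113559), a gene of cartilage and of cortical neurons, has an entry whose paired GENCODE transcript spans 376.5 kb on chromosome 6 from 143832970 to 144209452, with 14 exons and 2526 nt when spliced. The annotated *Sox5* gene is longer, 953.6 kb from 143828425 to 144781977, and every *Sox5* value per length given here uses the transcript. The spans of the *Sox6* and *Sox5* transcripts are at the percentiles 99.3 and 98.3 of 19073 genes with such a model, whose median is 18.3 kb. The mean of *Sox6* was 2.85 times that of *Sox5*, or 0.890 times per kb of transcript and 1.89 times per kb of span. Other annotated genes overlap both. Over the transcript of *Sox5* there are 2, 1 of them on the opposite strand (Sox5os1), and over the whole gene 7, while *Sox6* has 2 on the opposite strand.

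*Sox6* was the member with more than 1 entry, and its entries show how the values scale with length. The 6 *Sox6* entries are transcripts of the same gene that overlap in the genome, so they are not independent. NM_001025559 had 1238 mean normalized counts over a span of 567.4 kb. NM_011445 had 1127 over 523.7 kb, NM_001277326 had 728.6 over 369.4 kb and NM_001277327 had 696.5 over 350.3 kb. The order of the values of these 4 entries was the order of their spans, and each had between 1.97 and 2.18 mean normalized counts per kb of span. Per kb of spliced transcript the same entries ran from 136.0 to 257.9. The remaining entries, NM_001025560 at 1229 and NM_001277328 at 673.0, were paired with 1 and the same GENCODE transcript of 559.7 kb, so the span of at least 1 of them is uncertain. Over all 838 genes with several entries of a mean of at least 10 and of unequal lengths, the highest entry had a longer span than the lowest in 96.3% and a longer spliced transcript in 66.8%. Where both lengths disagreed, in 267 genes, the highest entry had the longer span in 257. In these genes the value of an entry thus went with its genomic span more often than with its spliced length. This bears on every level compared between genes here, those of *Sox5* and *Sox6* among them.

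**Figure D2:**
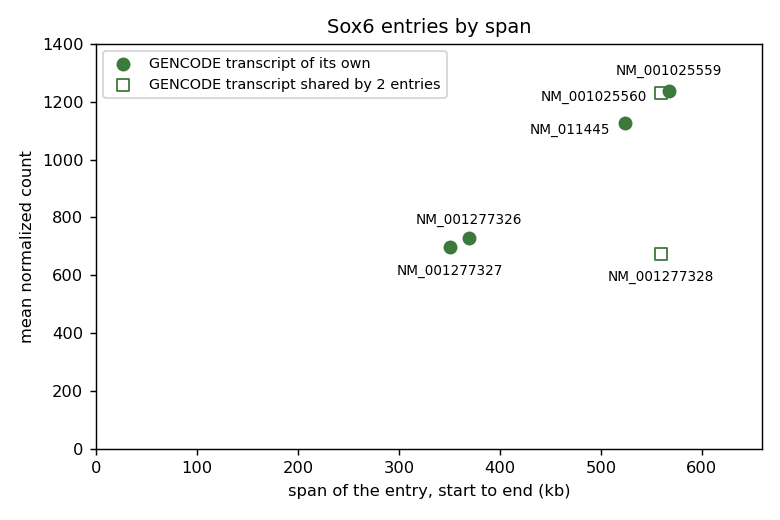
Mean normalized count of the 6 *Sox6* entries against the genomic span (kb) of the GENCODE transcript paired with each; filled circles have a transcript of their own and open squares share 1. The 4 filled circles rise with the span, from 696.5 at 350.3 kb to 1238 at 567.4 kb.

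The order of the members therefore depended on which length the counts were divided by. Per kb of spliced transcript *Sox5* was highest at 172.2, followed by *Sox6* at 153.3 and *Sox11* at 133.6. These 3 were above the median of all genes, 76.7, and the other members were below it. The place of *Sox5* rests on a short model of 2526 nt, 84.9% of it coding, against 29.2% for *Sox6* and 14.3% for *Sox11*. Per kb of genomic span *Sox11* was highest at 133.6, followed by *Sox4* at 51.7 and *Sox21* at 43.6. On this scale *Sox6* and *Sox5* were at 2.18 and 1.16, the latter the lowest of the 10, and 6 members were above the median of 9.90. The 5 genes of a single exon have the same value on both scales, while they moved up among all genes because introns enter the span of most others. *Sox11* went from the percentile 58.6 per kb of transcript to 95.5 per kb of span, and *Sox5* from 63.4 to 28.6.

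**Figure D3:**
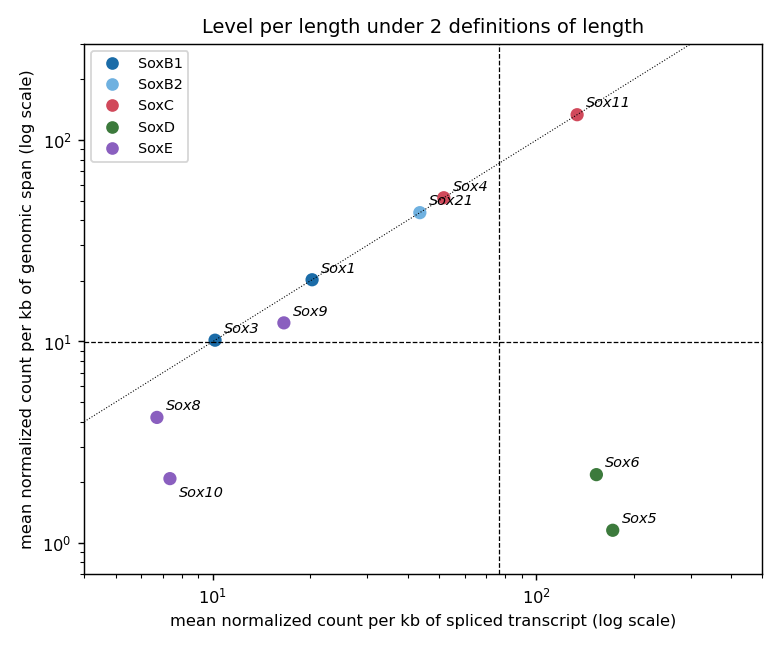
Mean normalized count per kb of genomic span against that per kb of spliced transcript (both log scales) for the 10 members, coloured by subfamily; dashed lines are the medians of all genes at 9.90 and 76.7, and the dotted line marks equal values. The genes of a single exon lie on the dotted line, and *Sox5* and *Sox6* lie far below it.

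Among the other Sox genes, *Sox2*, the SoxB1 gene of the pluripotency network, was the highest. Its mean of 1849 was 18.9 times *Sox1*, 88.2 times *Sox3* and 1.66 times *Sox11*, or 44.4, 88.5 and 6.72 times per kb of transcript. It lies whole within Sox2ot, a noncoding gene on the same strand whose entry had a mean of 2122, so its value shares the uncertainty of *Sox1*. *Sox13*, the remaining SoxD gene, had 1149, or 0.927 times *Sox6* as a mean. It was 2.03 times *Sox6* per kb of transcript and 12.5 times per kb of span. *Sox12*, the remaining SoxC gene, had 124.3, so that *Sox4* was 1.99 times and *Sox11* 8.93 times as high. Per kb of transcript they were 1.85 and 4.79 times *Sox12*. *Sox14*, the other SoxB2 gene, had 3.60, and *Sox21* was 46.0 times as high, or 25.0 times per kb of transcript. The endoderm and endothelial genes *Sox17*, *Sox7* and *Sox18* of the SoxF subfamily had 561.8, 397.3 and 3.35. *Sox15*, *Sox30* and *Sry* had 91.7, 38.1 and 0.187. The median of the 10 members was 131.8 and that of the 10 other Sox genes 108.0.

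For the lineages that give the Sox genes their label, the median mean normalized count was 31.0 over the neural progenitor markers and 183.0 over the neural crest markers, beside 191.6 over all genes. Of 12 markers of neural progenitors 3 had a mean of at least 100, beside 57.6% of all genes, led by the intermediate filament gene *Nes* at 857.0 and *Tubb3* at 144.0. There were 5 under 10, while 15626 of all 20633 entries had at least 10, and the lowest were *Dcx* at 1.33 and *Fabp7* at 0.458. Of 12 neural crest markers 7 reached 100 and 1 was under 10, led by *Mitf* at 1328 and *Erbb3* at 750.3, while *Snai2* had 17.5. Among 23 partners and targets of SOX proteins 16 reached 100 and 3 were under 10. The highest were the corepressor gene *Ctbp2* at 17693 and *Notch1* at 1751, and the lowest were *Pou3f4* at 4.20 and *Dcx*. Of the markers of other cells that the cultures could hold, 7 of 8 for primitive endoderm, 4 of 6 found for trophoblast and 3 of 10 for fibroblasts and feeders reached 100. *Lama1* and *Sparc* led the first at 44702 and 18572, with *Foxa2* at 160.6 and *Afp* at 3.32 the lowest. *Tfap2c* at 549.2 and *Hand1* at 508.0 led the second, with *Cdx2* at 87.6 and *Elf5* at 32.2 the lowest. *Cd44* at 888.0 and *Twist2* at 132.4 led the last, and *Col3a1* and *Lum* were at 1.01 and 0.283. The part of such cells in the levels of the Sox genes was not tested.

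The start sites of the members were compared by their CpG content, a feature of the promoters that Polycomb complexes occupy. RefSeq windows of 300 bases, from 250 before to 50 after a start, were found for 7 members, and 6 of these have a window within 500 bases of the start of the entry used here. For *Sox3*, *Sox9* and *Sox10* no window was used. A window was counted as island-like where its observed over expected CpG was over 0.6 and its GC content over 50%, which held for 33.3% of 32851 windows. Of the 6 windows near the entry's start 5 were island-like, as were 5 of all 12 windows of the members, of which 6 are of *Sox6*. The 33.3% counts windows at all starts, so the count over all 12 is the one to set beside it. *Sox1* had the most CpGs, 37, and the highest ratio, 1.07. *Sox11* had 21 CpGs and a ratio of 0.817, *Sox21* had 22 and 0.687, *Sox4* had 12 and 0.679, and *Sox8* had 21 and 0.647. *Sox6* was the exception, with 11 CpGs and a ratio of 0.672 but a GC content of 47.0%. Its other 5 windows, at starts inside the gene, had ratios of 0.160 to 0.443, and the window of *Sox5*, which lies 262346 bases from the start of its entry, had 0.256. The median over all windows was 0.384.

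The 250 bases before the RefSeq start are given (GRCm38.p6, the assembly of mm10), with each CpG in capitals. The members are the one with the most CpGs, the highest gene of a single exon and the exception. Their RefSeq starts lie 224 bases from the entry's start for *Sox1*, 144 for *Sox11* and 0 for *Sox6*. Most of the *Sox1* stretch therefore lies inside the transcript paired with its entry. The stretches lie at chr8:12395269-12395518 on the plus strand for *Sox1* and at chr12:27342719-27342968 on the minus strand for *Sox11*. That of *Sox6* lies at chr7:116038745-116038994 on the minus strand, and all read 5′ to 3′.
Sox1: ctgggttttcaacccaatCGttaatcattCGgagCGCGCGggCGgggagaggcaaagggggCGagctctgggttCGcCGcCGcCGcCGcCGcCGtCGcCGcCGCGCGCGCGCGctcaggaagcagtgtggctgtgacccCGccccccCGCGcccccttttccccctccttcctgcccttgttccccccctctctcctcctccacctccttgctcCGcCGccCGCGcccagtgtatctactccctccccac
Sox11: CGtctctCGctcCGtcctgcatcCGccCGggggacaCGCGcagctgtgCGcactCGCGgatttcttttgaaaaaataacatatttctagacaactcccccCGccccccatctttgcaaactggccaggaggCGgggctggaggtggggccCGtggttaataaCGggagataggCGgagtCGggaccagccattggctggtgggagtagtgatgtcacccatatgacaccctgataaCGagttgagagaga
Sox6: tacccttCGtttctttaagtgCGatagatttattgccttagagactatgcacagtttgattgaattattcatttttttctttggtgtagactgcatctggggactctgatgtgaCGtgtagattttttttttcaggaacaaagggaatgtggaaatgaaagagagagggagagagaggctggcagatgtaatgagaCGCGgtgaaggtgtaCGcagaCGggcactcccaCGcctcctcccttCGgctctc
The stretches hold 29, 17 and 9 CpGs. *Sox1*, with the most CpGs, had a lower mean normalized count than *Sox11*, which was 11.3 times as high, or 6.60 times per kb of transcript. *Sox8*, with 18 in the same stretch, was among the lowest members. Whether CpG content goes with the level was not tested.

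**Figure D4:**
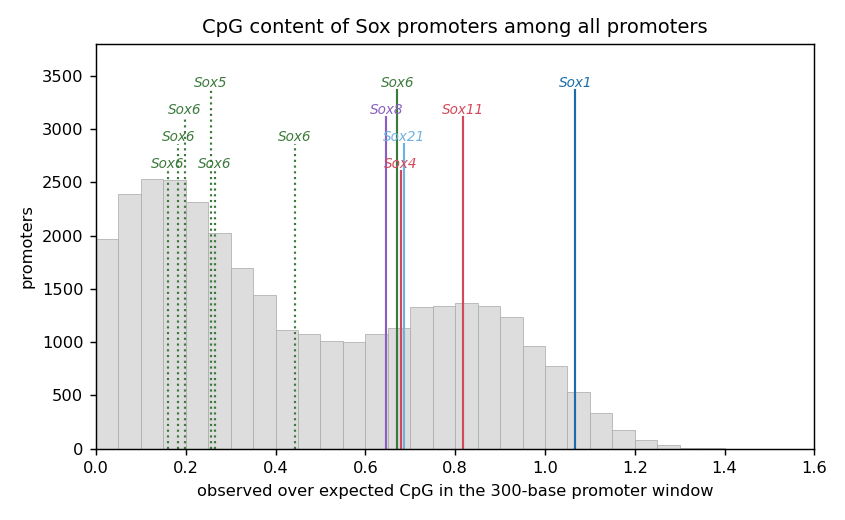
Observed over expected CpG in windows of 300 bases at RefSeq starts. Grey bars count all windows (1 beyond 1.6 is not drawn). Solid lines are members' windows within 500 bases of the start of the entry used, and dotted lines are other windows of *Sox5* and *Sox6*. Solid lines lie between 0.647 and 1.07 and dotted lines between 0.160 and 0.443.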

How the data were processed

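Per the labels, 16 nuclear RNA-seq libraries were made with a directional kit, 4 in each of 4 groups. The authors filtered out rRNA fragments (Bowtie 2), mapped what remained with STAR to mm10, discarded PCR duplicates with SAMtools and ran DESeq2 on a nonredundant gene set; versions are not given in the sources used here. The deposited signal is their mean normalized count for 20633 RefSeq entries, averaged over libraries. The other 6 measurement columns of each table hold fold changes, standard errors, statistics and p-values of the authors' comparisons and were not used. Depth per library is unknown, so no interval or floor is given, and the planned tests between groups were not run.

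Symbols were found for 20560 entries, 20450 from RefSeq and 110 from GENCODE M21, and 897 entries had a mean of 0. A percentile is the percent of genes with a lower mean, tied genes weighted 0.5. Spans, exons and spliced lengths are those of the GENCODE transcript paired with an entry. Members and lists were chosen with earlier results of these data known. All 10 members and the other Sox genes are named, and of each other list the 2 highest and 2 lowest genes, except 1 gene that is not reported here. Percentiles were tested on simulated data. Python 3.11.15 with numpy 2.4.6, pandas 2.3.3 and matplotlib 3.10.9 was used.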

Additional observations from a re-analysis of the deposited data

How the results depend on the processing

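A value was counted as moved where it changed by over 1.5 times. The level of *Sox6* was 5692 as the sum of its entries and 673.0 in its lowest entry. The *Sox6* entries overlap in the genome, so their sum can count the same reads more than once. The levels of the other 9 members, with 1 entry each, did not change. Among genes with a mean of at least 10 the percentiles of 6 members moved, to 22.8 for *Sox1*, 6.40 for *Sox3*, 30.9 for *Sox21*, 5.95 for *Sox8*, 18.2 for *Sox9* and 5.86 for *Sox10*, since low genes leave the comparison. Among genes with a mean above 0 none of the 10 moved. Per kb of span in place of spliced transcript 8 of 10 percentiles moved, to 62.8 for *Sox1*, 50.4 for *Sox3*, 79.7 for *Sox21*, 83.3 for *Sox4*, 95.5 for *Sox11*, 53.6 for *Sox9*, 28.6 for *Sox5* and 33.4 for *Sox6*. The CpG ratio over the 250 bases before the RefSeq start moved for none of 6 windows. No paired analysis was possible because no values per library were used, and for the same reason other normalizations, filters and left-out replicates were not run. Protein identity was not analysed here.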
